A study of Mus musculus with 26 samples.

Results

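The 10 genes described here code for enzymes of glycolysis: Hk2, Gpi1, Pfkl, Aldoa, Tpi1, Gapdh, Pgk1, Pgam1, Eno1 and Pkm. They were found by an exact match of the gene symbol and are 10 of the 20430 symbols in the RNA tables and 10 of the 19941 in the footprint tables. All 10 had enough counts to be tested in every comparison. The cells were NIH3T3, an immortalised line of mouse embryonic fibroblasts, so each result holds for 1 line in culture. PolyA-selected RNA was sequenced from 8 groups of 2 libraries. The libraries form 2 experiments, each with its own control. The heat experiment held unheated controls, cells at 44 °C for 2 h and cells at 42 °C for 8 h. The other held untreated controls, cells under oxidative stress from H2O2 for 2 h or 7 h, and cells under osmotic stress from KCl for 2 h or 7 h. Ribosome footprints, the mRNA fragments that ribosomes protect, were sequenced for the 5 groups of the H2O2 and KCl experiment, again in 2 libraries each. Doses of H2O2 and KCl are not named in the labels. The study asked how transcription that runs past the ends of genes under stress reaches neighbouring genes.

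Glycolysis splits glucose into pyruvate in the cytosol and yields ATP and NADH without oxygen. Hexokinase 2 (Hk2) traps glucose as glucose 6-phosphate, Gpi1 turns it into fructose 6-phosphate, and the liver-type phosphofructokinase Pfkl commits it to the pathway. Aldolase A (Aldoa) cleaves the sugar, Tpi1 interconverts the resulting trioses, and Gapdh oxidises glyceraldehyde 3-phosphate. Pgk1 makes ATP, Pgam1 and enolase 1 (Eno1) rearrange the product, and pyruvate kinase (Pkm) makes ATP again and releases pyruvate. Many of these genes are known targets of HIF-1, a transcription factor that binds DNA at the letters ACGTG or GCGTG and accumulates when oxygen is low. Glucose 6-phosphate can also leave for the pentose phosphate pathway, which supplies the NADPH that cells use against peroxide. Gapdh and Pgk1 are often used as reference genes.

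The 250 bases upstream of the annotated start are printed for 5 of the genes, from RefSeq, build GRCm38.p6, with HIF-1 core letters on either strand in capitals (ACGTG, read as CACGT on the other strand, and GCGTG, read as CACGC). Hk2 is shown because its RNA changed most under H2O2, Pfkl and Pgam1 because theirs rose most under KCl for 7 h, Pgk1 because it holds ACGTG on both strands, and Tpi1 because it holds neither motif and was not called under KCl. Hk2 lies at chr6:82774455-82774704 (minus strand), Pfkl at chr10:78009808-78010057 (minus), Pgk1 at chrX:106186850-106187099 (plus), Pgam1 at chr19:41911621-41911870 (plus) and Tpi1 at chr6:124814159-124814408 (minus).
Hk2: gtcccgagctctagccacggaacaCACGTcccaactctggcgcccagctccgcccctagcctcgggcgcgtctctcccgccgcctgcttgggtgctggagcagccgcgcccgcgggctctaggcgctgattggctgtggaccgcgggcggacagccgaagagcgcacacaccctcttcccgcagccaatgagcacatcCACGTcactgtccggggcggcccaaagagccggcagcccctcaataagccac
Pfkl: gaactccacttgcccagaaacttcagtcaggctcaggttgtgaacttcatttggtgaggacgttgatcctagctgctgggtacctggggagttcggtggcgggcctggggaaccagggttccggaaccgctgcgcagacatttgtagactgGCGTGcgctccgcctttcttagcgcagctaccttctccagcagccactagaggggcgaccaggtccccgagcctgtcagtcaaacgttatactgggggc
Pgk1: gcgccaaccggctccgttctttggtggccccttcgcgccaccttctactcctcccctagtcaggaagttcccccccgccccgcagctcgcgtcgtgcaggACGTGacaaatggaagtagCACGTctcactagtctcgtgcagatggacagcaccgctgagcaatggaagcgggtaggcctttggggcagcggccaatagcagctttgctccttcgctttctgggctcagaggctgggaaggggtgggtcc
Pgam1: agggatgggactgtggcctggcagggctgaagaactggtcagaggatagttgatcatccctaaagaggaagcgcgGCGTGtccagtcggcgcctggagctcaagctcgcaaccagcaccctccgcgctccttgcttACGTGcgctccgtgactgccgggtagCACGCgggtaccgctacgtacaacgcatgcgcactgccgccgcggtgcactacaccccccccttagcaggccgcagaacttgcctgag
Tpi1: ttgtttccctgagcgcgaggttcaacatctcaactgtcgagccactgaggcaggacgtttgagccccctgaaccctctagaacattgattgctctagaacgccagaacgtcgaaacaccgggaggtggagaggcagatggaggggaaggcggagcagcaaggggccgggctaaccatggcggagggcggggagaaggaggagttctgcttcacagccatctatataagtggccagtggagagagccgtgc

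Over all annotated starts of the 10 genes, ACGTG was found for 5 of them (Hk2, Aldoa, Pgk1, Pgam1 and Pkm), while 18.5% of 27025 genes had it in a window of the same length. GCGTG was found for 4 (Pfkl, Gapdh, Pgam1 and Eno1), against 30.9% of genes. Gpi1 and Tpi1 had neither. The E-box CACGTG, which contains ACGTG and is bound by MYC and by the glucose sensor ChREBP, was in none of the 10 and in 6.86% of genes. The heat shock element, the site of heat shock factor 1, searched as 3 alternating units of GAA and TTC spaced by 2 bases, was also in none, against 0.514% of genes. The letters TGACNNNGC, the core bound by the oxidative stress factor NRF2, were found once, for Aldoa, against 11.5% of genes. A match is a description of letters in this window and says nothing about binding in these cells.

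RNA libraries held 24441877 to 45244430 counts and footprint libraries 1460751 to 5168537, the lowest in replicate 1 of H2O2 for 2 h. Of the fibroblast markers, Vim (1783 to 4402 TPM) and Col1a1 (694 to 2835 TPM) were abundant in all RNA libraries. Col1a2, Fn1 and S100a4 were at 333 TPM or more throughout. Col3a1 (67.1 to 702 TPM), Pdgfrb (10.7 to 122 TPM) and Thy1 (7.6 to 64.2 TPM) went lower. The blood genes Adgre1 and Cd3e and the neuronal gene Snap25 were listed at 0 throughout. Among epithelial markers Krt18 lay between 6.46 and 17.2 TPM and the others reached at most 1.12 TPM. Endothelial markers reached at most 2.58 TPM and muscle markers 4.21 TPM. Replicates are labelled only by number. Whether they came from separate cultures is not stated, so p-values measure the spread between these libraries, which may be technical. Values are given as CPM, the count divided by a TMM-scaled library total, to compare 1 gene between groups, and as TPM, which also divides by transcript length, to compare genes with each other. A gene was called when its Benjamini-Hochberg adjusted p in edgeR's quasi-likelihood test, over all genes tested, was at most 0.05. Some counts of members at an unadjusted p under 0.05 are given as well. The share of all genes at that looser threshold was not computed. Both scales are shares of a library, so neither the number of cells nor the amount of RNA per cell can be read from them.

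In untreated cells of the H2O2 and KCl experiment Pkm had the highest RNA level, at 2388 and 2582 TPM in the 2 control libraries. Eno1 followed at 1775 and 1755 TPM, and Gapdh at 1409 and 1492 TPM. Aldoa, Pgk1, Pgam1 and Tpi1 lay between 709 and 888 TPM. In that order their libraries did not overlap, but the steps from Pgk1 to Pgam1 and Tpi1 were small. The enzymes that act first were the lowest: Gpi1 at 240 and 235 TPM, Pfkl at 87.5 and 92.1 TPM, and Hk2 at 20.4 and 24.1 TPM. Hk1, the constitutive hexokinase, was at 112 and 114 TPM. In the unheated controls of the heat experiment Gapdh (1723 and 1799 TPM) and Eno1 (1730 and 1785 TPM) overlapped, and Tpi1 (940 and 987 TPM) lay above Pgk1 (848 and 843 TPM). Together the 10 genes made up 0.899% and 0.927% of all RNA TPM in the H2O2 and KCl control and 1.01% and 1.05% in the heat control.

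Under KCl for 7 h the RNA of most glycolytic enzymes rose together. Against the control, 6 of the 10 genes rose and 1 fell, while 68.8% of 13256 genes were called (37.2% higher and 31.6% lower). Their median log2 fold change was 0.33, and that of all genes 0.039. The summed share of TPM went from 0.899% and 0.927% to 1.11% and 1.13%.

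Pgam1, the phosphoglycerate mutase, rose most: 596 and 585 CPM in the control and 1084 and 1077 CPM after 7 h of KCl. That was 1.83-fold (log2 fold change 0.87, SE 0.054, adjusted p = 6.62e-09). Pfkl, the committing step, went from 130 and 137 CPM to 219 and 240 CPM, 1.72-fold (log2 0.78, SE 0.066, adjusted p = 1.38e-07). In both genes the 2 stressed libraries lay far above both controls. Pkm, the last step, had 2407 and 2555 CPM in the control and 3647 and 3689 CPM under KCl, 1.48-fold (log2 0.56, SE 0.064). Aldoa rose 1.37-fold from 536 and 554 CPM to 743 and 751 CPM. The ATP-making kinase Pgk1 rose 1.31-fold (log2 0.39, SE 0.053) and Eno1 1.21-fold (log2 0.27, SE 0.053). These 6 calls held in each of the 4 fits that left out 1 library of the groups compared.

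Hk2 moved the other way, from 51.5 and 60.2 CPM to 47.8 and 48.5 CPM, with a log2 fold change of -0.21 (SE 0.081, adjusted p = 0.0316). That call did not hold without control replicate 2 (-0.10, adjusted p = 0.342), without KCl replicate 1 (-0.20, adjusted p = 0.119) or without KCl replicate 2 (-0.22, adjusted p = 0.0851), and the value was -0.32 without control replicate 1. Gpi1, Tpi1 and Gapdh were not called. Tpi1 had 502 and 492 CPM in the control and 497 and 500 CPM under KCl, and Gapdh 780 and 817 CPM against 863 and 804 CPM. Groups overlapped for these 2 genes. Gpi1 lay at 312 and 302 CPM in the control and 315 and 328 CPM under KCl. The 6 genes that rose run from the committing step to the last, and Hk2, Gpi1, Tpi1 and Gapdh were not among them.

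**Figure D1:**
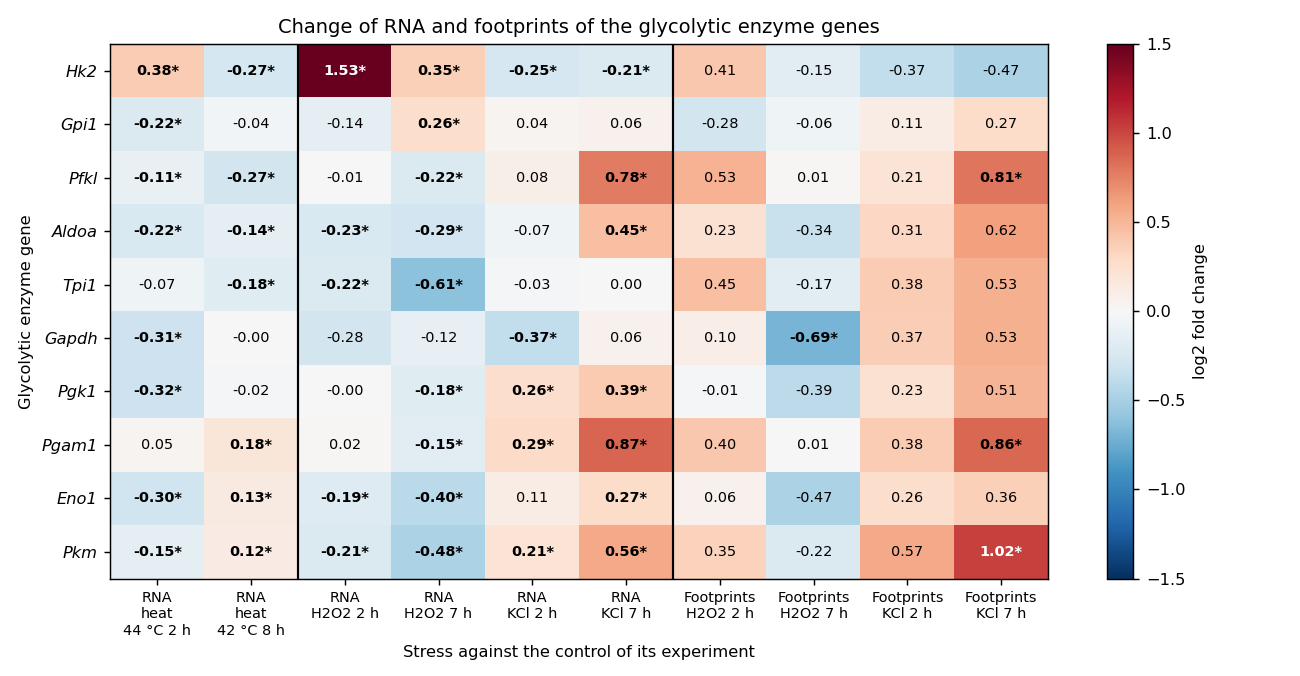
Log2 fold change of the 10 glycolytic enzyme genes (rows) for each stress against the control of its experiment (columns), from edgeR fits with 2 libraries a group; bold values with an asterisk have an adjusted p of at most 0.05. The RNA column for KCl 7 h is mostly red, led by Pgam1 at 0.87, the column for H2O2 7 h mostly blue, with Tpi1 at -0.61, and the Hk2 cell for H2O2 2 h reaches 1.53.

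At 2 h of KCl the response was smaller and mixed. RNA of 3 genes rose and of 2 fell, while 54.2% of all genes were called (27.2% higher and 27% lower). Pgam1 had 733 and 709 CPM, above the control, with a log2 fold change of 0.29 (SE 0.054). Pgk1 had 734 and 735 CPM against 613 and 610 CPM, a change of 0.26 (SE 0.053). Both calls held with any library left out. Pkm, at 2969 and 2759 CPM, changed by 0.21 (SE 0.064), a call lost without control replicate 1 (0.16) or KCl replicate 1 (0.15). Of the lower calls, Hk2 fell by 0.25 on the log2 scale, a call lost without control replicate 2 (-0.14, adjusted p = 0.207). The KCl libraries disagreed on Gapdh, at 733 and 502 CPM. Its change of -0.37 (SE 0.12) was -0.67 without KCl replicate 1 and -0.12 without KCl replicate 2. It was not called in the latter fit, without control replicate 2 (-0.34) or with DESeq2 (adjusted p = 0.0695). Leaving out control replicate 2 reduced the 5 calls to 3.

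Between 2 h and 7 h of KCl, 7 of the 10 genes rose and none fell, against 68.8% of all genes called (35.1% higher). Pfkl rose by a further 0.70 on the log2 scale, Pgam1 by 0.58, Aldoa by 0.52 and Pkm by 0.36. Gapdh rose by 0.43, from the 2 unequal libraries at 2 h, by 0.18 without KCl 2 h replicate 2 and by 0.73 without KCl 2 h replicate 1. Among the 7 called genes Pgk1 (0.13) and Eno1 (0.16) changed least, and the Pgk1 call was lost in all 4 fits that left out 1 library (adjusted p 0.0858 to 0.118). Pgk1 had 734 and 735 CPM at 2 h and 801 and 805 CPM at 7 h.

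**Figure D2:**
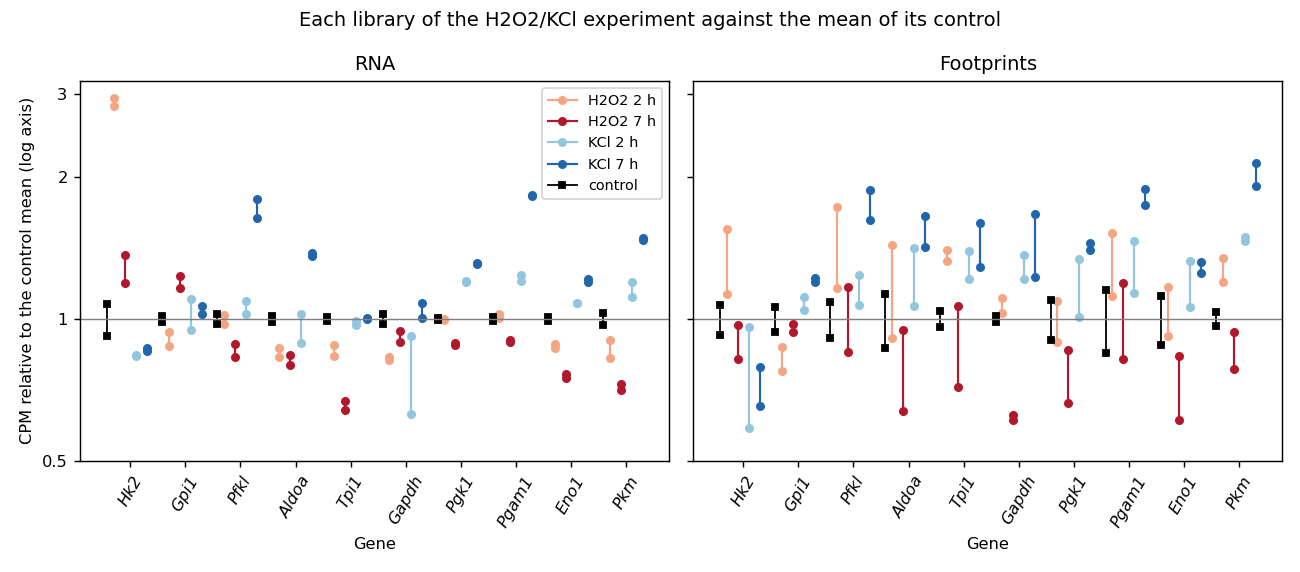
CPM of each library of the H2O2 and KCl experiment divided by the mean of the 2 controls, on a log axis, for RNA (left) and footprints (right); points are libraries, lines join the 2 libraries of a group, and black squares are controls. In RNA the dark blue points of KCl 7 h lie highest for Pfkl, Aldoa, Pgam1 and Pkm, the dark red points of H2O2 7 h lie lowest for Tpi1, Eno1 and Pkm, and both Hk2 libraries of H2O2 2 h lie near 3; footprint libraries of a group lie farther apart.

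H2O2 gave a different pattern. At 2 h Hk2 was the single member to rise: 51.5 and 60.2 CPM in the control and 158 and 165 CPM under H2O2. This was 2.90-fold (log2 fold change 1.53, SE 0.078, adjusted p = 1.67e-09), and it was between 1.42 and 1.65 on the log2 scale with any library left out. Per length, Hk2 went from 20.4 and 24.1 TPM to 63.1 and 65.9 TPM. Hk1 had 96.3 and 93.4 TPM at that time, so the 2 hexokinases came closer in level. In all, 1 member rose and 4 fell, against 53.9% of 13256 genes called (27.3% higher and 26.5% lower). Hk2 alone also passed a change of at least 1 on the log2 scale, as did 13.3% of all genes.

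The 4 genes that fell at 2 h did so by small amounts: Aldoa by 0.23, Tpi1 by 0.22, Pkm by 0.21 and Eno1 by 0.19 on the log2 scale. Tpi1, for example, went from 502 and 492 CPM to 438 and 416 CPM. The groups did not overlap for any of the 4, but without H2O2 replicate 2 all 4 lost their call (Aldoa -0.20, Tpi1 -0.18, Pkm -0.15, Eno1 -0.18) and Hk2 alone was left. Without control replicate 2, Aldoa (-0.21) and Pkm (-0.17) lost theirs, while without H2O2 replicate 1 Pkm was at -0.34. Gapdh had 655 and 663 CPM against 780 and 817 CPM in the control, with a log2 fold change of -0.28 that was not called (adjusted p = 0.0647). Pgk1 (608 and 611 CPM), Pgam1 (593 and 604 CPM) and Pfkl (136 and 130 CPM) lay at their control levels.

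By 7 h of H2O2 most of the pathway was lower. RNA of 7 genes fell and of 2 rose, against 70.5% of genes called (39.4% higher and 31.1% lower). The 10 genes' median log2 fold change was -0.20, and that of all genes 0.075. Their share of TPM was 0.705% and 0.682%. Tpi1, the triose isomerase, fell most, from 502 and 492 CPM to 332 and 319 CPM (log2 fold change -0.61, SE 0.057, adjusted p = 2.47e-07). Pkm went to 1808 and 1754 CPM, a change of -0.48 (SE 0.064), and Eno1 from 1388 and 1359 CPM to 1051 and 1031 CPM, a change of -0.40 (SE 0.053). For these 3 genes every H2O2 library lay below every control. Aldoa fell by 0.29, Pfkl by 0.22, Pgk1 by 0.18 and Pgam1 by 0.15 on the log2 scale. The Pfkl call was lost without control replicate 2 (-0.19). The Pgam1 call was lost without control replicate 1 (-0.14) or H2O2 replicate 2 (-0.15), and the value was -0.24 without H2O2 replicate 1.

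Hk2 and Gpi1, the first 2 enzymes, were higher at 7 h of H2O2. Hk2 stood at 66.5 and 76.2 CPM (log2 fold change 0.35, SE 0.079, adjusted p = 0.00113), well down from its level at 2 h. Gpi1 stood at 380 and 357 CPM against 312 and 302 CPM (0.26, SE 0.073), a call lost without H2O2 replicate 1 (0.14, adjusted p = 0.227). Gapdh, at 753 and 712 CPM, was not called. Between 2 h and 7 h of H2O2, Gpi1 rose and 7 members fell, against 73.4% of genes called (37.3% higher and 36.1% lower). Hk2 fell by 1.18 on the log2 scale, the one change of at least 1 (26.5% of genes), and Tpi1 by 0.39.

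**Figure D3:**
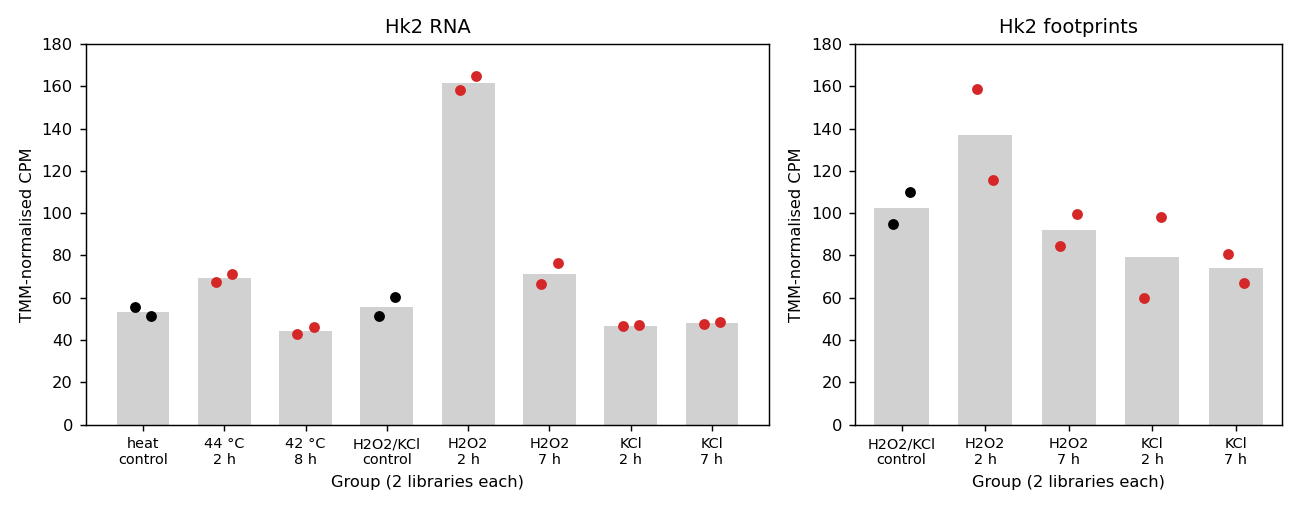
TMM-scaled CPM of Hk2 in RNA of 8 groups (left) and in footprints of 5 groups (right); bars are means of 2 libraries, points the libraries, black for controls and red for stress. Both RNA libraries of H2O2 2 h, at 158 and 165 CPM, lie above all others, while the footprint libraries of that group lie at 159 and 116 CPM, next to controls at 94.9 and 110 CPM.

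H2O2 and KCl were set against each other directly at equal times, since both use the same controls and their contrasts against it are not independent. At 2 h, Hk2 was 3.46-fold higher under H2O2 and 5 members were lower, against 51.3% of genes called (27% higher and 24.2% lower). Hk2 alone passed the threshold of 1 on the log2 scale, as did 12.6% of genes. The lower genes were Pkm (-0.42), Eno1 (-0.30), Pgk1 (-0.27), Pgam1 (-0.27) and Tpi1 (-0.19). The Tpi1 call was lost without H2O2 replicate 2 (-0.15, adjusted p = 0.117). At 7 h, 2 members were higher under H2O2 (Hk2 0.57, Gpi1 0.20) and 7 lower, against 78.4% of genes called (41% higher and 37.4% lower). Pkm was 2.06-fold lower under H2O2 (log2 -1.04, SE 0.065), Pgam1 2.04-fold lower (-1.03, SE 0.054) and Pfkl 2.00-fold lower (SE 0.067). These 3 passed the threshold of 1 on the log2 scale, as did 33.9% of all genes. Aldoa (-0.74), Eno1 (-0.67), Tpi1 (-0.61) and Pgk1 (-0.57) were lower as well. Gpi1 lost its call without H2O2 replicate 1 (0.14) or KCl replicate 1 (0.17). For Tpi1 the KCl libraries stood at the control level, and for Pgam1 and Pfkl most of the distance lay on the KCl side.

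In the heat experiment no member changed by 1 or more on the log2 scale. At 44 °C for 2 h, 7 members fell and 1 rose, against 71% of 12747 genes called (35.4% higher and 35.7% lower). Pgk1 went from 677 and 673 CPM in the unheated control to 547 and 538 CPM (log2 fold change -0.32, SE 0.041, adjusted p = 8.12e-06). Gapdh went from 955 and 992 CPM to 771 and 796 CPM (-0.31, SE 0.041) and Eno1 from 1342 and 1383 CPM to 1104 and 1109 CPM (-0.30, SE 0.041). The control and heated libraries were well apart in all 3. Aldoa and Gpi1 fell by 0.22 each, Pkm by 0.15 and Pfkl by 0.11. Pkm and Pfkl were not called on the TPM scale, where the median of all genes was 0.053 and 5 members were lower and 2 higher. Pfkl also lost its call without 44 °C replicate 2 (-0.078) or control replicate 2 (-0.086), and Pkm without 44 °C replicate 1 (-0.12). Hk2 rose from 55.6 and 51.2 CPM to 67.5 and 71.3 CPM (0.38, SE 0.055). Tpi1 (639 and 636 CPM) and Pgam1 (626 and 624 CPM) were not called.

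At 42 °C for 8 h, 4 members fell and 3 rose, against 63.6% of genes called (31.7% higher and 31.9% lower). Pfkl (232 and 242 CPM in the control, 197 and 194 CPM at 42 °C) and Hk2 (43.0 and 46.0 CPM at 42 °C) both fell by 0.27 on the log2 scale, Tpi1 by 0.18 and Aldoa by 0.14. Pgam1 (0.18), Eno1 (0.13) and Pkm (0.12) were called higher. Direction was not stable for these 3: on the TPM scale, where all genes had a median of -0.163, their values were -0.012, -0.054 and -0.069. The count on that scale was 0 higher and 7 lower, with Pgk1, Gapdh and Gpi1 among the lower calls. Without 42 °C replicate 1 all 3 lost their call (0.12, 0.10 and 0.12 in CPM), and the number of called members went from 7 to 4. Without control replicate 1, Eno1 (0.12) and Pkm (0.097) lost theirs, and without 42 °C replicate 2 Pkm (0.12). Pgk1 (686 and 647 CPM), Gapdh (987 and 958 CPM) and Gpi1 (329 in each library) were not called in CPM.

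The 2 heat regimes differ in temperature and in time, so neither can be told apart from the other in their contrast. Against 44 °C, 6 members were higher at 42 °C and 3 lower, against 75.1% of genes called (37.9% higher and 37.2% lower). Hk2 was 1.56-fold lower (log2 -0.64, SE 0.057). Eno1 was 1.35-fold higher (0.43, SE 0.041), and Gapdh and Pgk1 changed by 0.31 and 0.30. Pkm (0.27), Gpi1 (0.18) and Pgam1 (0.13) were called higher too. On the TPM scale the median of all genes was -0.203, and the count was 1 higher (Eno1) and 5 lower, the reverse of the balance in CPM. Gapdh, Pgk1, Pkm and Gpi1 (-0.075) were not called there, and Pgam1 (-0.12) and Aldoa (-0.18) were called lower. In CPM Pfkl (-0.16) and Tpi1 (-0.11) were lower, the latter a call lost without 42 °C replicate 1 (-0.12), 42 °C replicate 2 (-0.098) or 44 °C replicate 1 (-0.11). Pgam1 lost its call without 42 °C replicate 1 (0.078).

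Across the 16 RNA libraries, with values centred within each experiment, profiles of members were compared by Pearson r. Pkm, Pgam1, Eno1, Pgk1, Aldoa and Pfkl had r between 0.64 (Pfkl and Eno1) and 0.94 (Eno1 and Pgk1) with one another. These points share controls, libraries and treatments, so r describes the profiles and was given no p-value. The 6 genes are also those that rose at 7 h of KCl in the same libraries, so their r is not independent of that choice. Tpi1 had r between 0.55 (Pgam1) and 0.76 (Pkm) with these 6. Hk2 had the lowest r with the mean of the other 9 members, -0.60, and Gpi1 the next lowest, -0.21. Within the H2O2 and KCl experiment these were -0.57 and -0.34, and within heat -0.85 and 0.94, so the sign for Gpi1 differed between experiments. Pfkl and Pgam1 had 0.94 and 0.89 within the H2O2 and KCl experiment, but 0.079 and -0.17 within the 6 heat libraries. Gapdh, the usual reference gene, reached 0.33. Among 12442 other genes, those most like the members' mean included Ism1 (r = 0.98), Qrich1 (0.97), Gna14 (0.97) and Cilp2 (0.96). Ldha, lactate dehydrogenase A, reached 0.96.

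Footprints report how much ribosomes occupy an mRNA. In untreated cells the 10 genes took 1.37% and 1.44% of footprint TPM, a larger share than of RNA. Gapdh led with 4832 and 4671 TPM, above Eno1 (2658 and 3209 TPM) and Pkm (2593 and 2311 TPM). The ratio of mean footprint TPM to mean RNA TPM was 3.28 for Gapdh, at percentile 97.1 of 10467 genes whose median was 0.639. Pgam1 (1.70), Eno1 (1.66), Hk2 (1.61) and Pgk1 (1.33) also had a larger share of footprint TPM than of RNA TPM. Pkm (0.987), Gpi1 (0.984), Aldoa (0.854), Pfkl (0.802) and Tpi1 (0.774) lay below 1, yet all above the median of all genes. Processed copies of Gapdh and the near-identical Eno1b can share short footprint reads, so the Gapdh and Eno1 levels are uncertain.

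After 7 h of KCl, footprints of 3 members rose and none fell, against 20.4% of 10545 genes called (10.5% higher). Pkm went from 4131 and 3858 CPM to 8556 and 7662 CPM, 2.03-fold (log2 fold change 1.02, SE 0.18, adjusted p = 0.00233). Pgam1 went from 765 and 1044 CPM to 1581 and 1711 CPM (0.86, SE 0.24, adjusted p = 0.0233), and Pfkl from 143 and 171 CPM to 295 and 255 CPM (0.81, SE 0.23, adjusted p = 0.025). Both KCl libraries lay above both controls for these genes, whose RNA changes were 0.56 to 0.87. The same held for every other member except Hk2, but the share of all genes that separate in this way was not computed. At an unadjusted p under 0.05 there were 7 members, all higher, including Aldoa (0.62), Tpi1 (0.53), Gapdh (0.53) and Pgk1 (0.51). Footprints of these last 4 were not called (adjusted p = 0.109, 0.0903, 0.0629 and 0.0994 in the same order). RNA of Tpi1 and Gapdh was not called at that time. Pkm, the one member past 1 on the log2 scale (12.7% of genes), held with any library left out. Pfkl lost its call in all 4 such fits (0.69 to 0.94). Pgam1 lost its call without control replicate 1 (0.66), KCl replicate 1 (0.92) or KCl replicate 2 (0.80), each time with the direction kept. The sum of the 10 genes rose to 2.21% and 2.04% of footprint TPM. Hk2 footprints, at 80.8 and 66.9 CPM, lay below the controls (94.9 and 110 CPM) and were not called.

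No member was called in footprints at 2 h of KCl with edgeR, where 6.86% of genes were. At an unadjusted p under 0.05 there was 1, Pkm, with 5851 and 5978 CPM (log2 fold change 0.57, adjusted p = 0.0835). DESeq2 called 1 member. Between 2 h and 7 h of KCl none was called either (20.6% of genes), with 2 at an unadjusted p under 0.05, Pfkl and Pkm, and none with DESeq2.

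Under H2O2 the footprints of Hk2 did not follow its RNA. At 2 h they were 159 and 116 CPM, against 94.9 and 110 CPM in the control. The log2 fold change was 0.41 with an interval of -0.07 to 0.89, which was not called (adjusted p = 0.422), while the RNA changed by 1.53. Without H2O2 footprint replicate 1, the shallowest library, it was 0.17, and without replicate 2 it was 0.62. Translational efficiency, the footprint change beyond the RNA change, was tested as an interaction over the 20 libraries of both kinds. For Hk2 it fell by 1.18 on the log2 scale (SE 0.25, adjusted p = 0.00575), 2.27-fold. The ratio of footprint to RNA TPM went from 1.61 to 0.726. With any of the 8 libraries left out it stayed called, between -1.40 and -0.95. Among all genes, 11.4% of 10480 were called (7.46% lower), and 5.59% with a change of at least 1. Hk2 was the single member called at that time by edgeR. Pkm (0.52, adjusted p = 0.0505) and Tpi1 (0.63, adjusted p = 0.0647) missed the threshold. Their footprints lay above the control in both libraries: Pkm at 5394 and 4778 CPM, and Tpi1 at 670 and 635 CPM against 498 and 460 CPM. DESeq2 called these 2 as well, and without H2O2 footprint replicate 2 edgeR called 2 members higher, Pkm (0.60) among them.

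Footprints at 2 h of H2O2 gave no call for any glycolytic enzyme: 0 members with edgeR and 0 with DESeq2, against 1.91% of genes, and 1 member (Pfkl) at an unadjusted p under 0.05. The shallowest footprint library belongs to this group. At 7 h, Gapdh footprints fell from 5010 and 4868 CPM to 3087 and 3015 CPM (log2 fold change -0.69, SE 0.19, adjusted p = 0.0152), the single member called against 27.7% of genes (10.6% lower). The groups were well apart, but the call was lost with any of the 4 libraries left out (adjusted p 0.0521 to 0.0672) and on the TPM scale. From 2 h to 7 h, footprints of Gapdh fell by 0.79, Tpi1 by 0.61 and Pkm by 0.57, against 29.8% of genes called (11.1% lower). Gapdh held in each fit with a library left out. Tpi1 and Pkm lost their calls without H2O2 2 h replicate 1 (-0.58 and -0.48) or 7 h replicate 1 (-0.39 and -0.48), and Tpi1 also without 2 h replicate 2 (-0.65). Without 7 h replicate 2 Tpi1 was at -0.96.

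Translational efficiency at 7 h of H2O2 was called for 0 members by edgeR and 0 by DESeq2, against 9.27% of genes, with 1 (Gapdh) at an unadjusted p under 0.05. At 2 h of KCl it was called for Gapdh alone (0.73, SE 0.22, adjusted p = 0.0401), against 12.8% of genes (3.58% higher). Gapdh RNA was the value on which the KCl libraries disagreed, and without KCl RNA replicate 2 the change was 0.48 (adjusted p = 0.197). It was called in 1 of the 8 fits with a library left out, that without KCl RNA replicate 1 (1.03). After 7 h of KCl edgeR called 0 members, against 5.57% of genes, with 3 at an unadjusted p under 0.05 (Tpi1, Gapdh and Pkm), and DESeq2 called 1, Pkm, at 0.48.

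**Figure D4:**
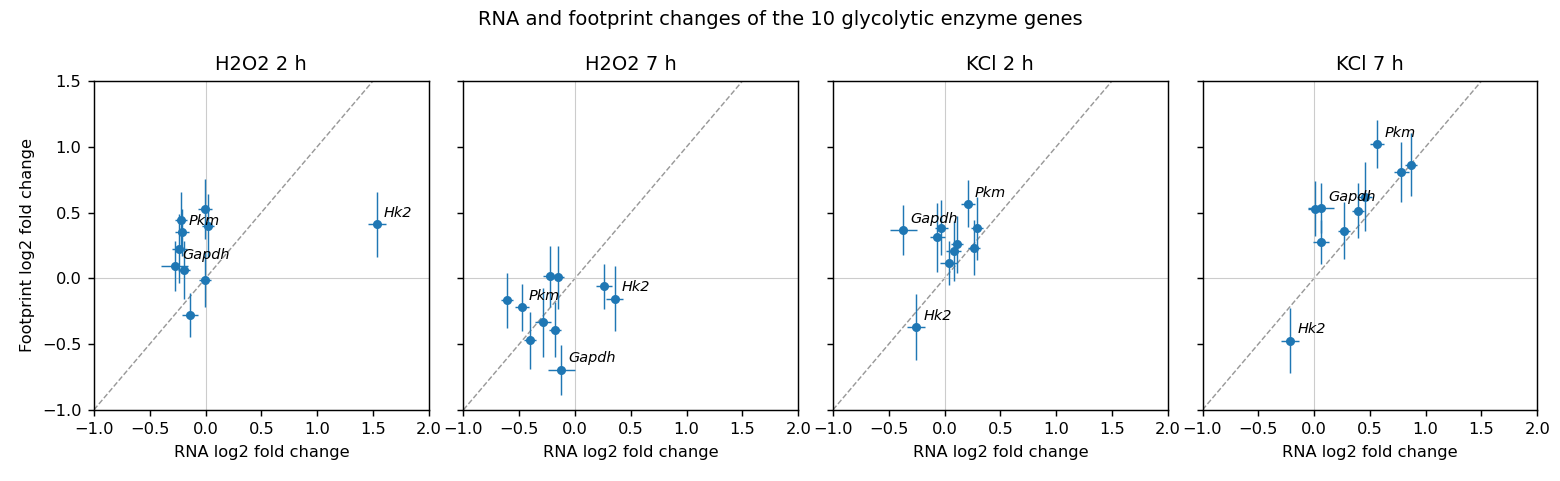
Log2 fold change of footprints (vertical) against RNA (horizontal) for the 10 glycolytic enzyme genes under each stress, with standard errors as bars; the dashed line marks equal change and Hk2, Gapdh and Pkm are named. At H2O2 2 h Hk2 lies far right of the line (RNA 1.53, footprints 0.41), and at KCl 7 h most genes lie above 0 on both axes with Pkm highest in footprints (1.02).

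Other genes of the pathway were read from lists of isozymes, transporters and regulators. Their counts stand beside the shares of all genes called, which were 37.2% higher and 31.6% lower at 7 h of KCl and 39.4% higher and 31.1% lower at 7 h of H2O2. Of 11 tested isozymes of the same steps, 5 rose and 3 fell at 7 h of KCl. Pfkp, the platelet-type phosphofructokinase, went from 18.8 and 20.4 TPM to 49.1 and 55.3 TPM (log2 fold change 1.51) and so rose more than Pfkl. Hk1, named for its tie to Hk2 after its values were seen, rose by 0.36. At 7 h of H2O2, 4 isozymes rose and 6 fell, or 6 calls in place of 10 without H2O2 replicate 2. Hk1 (-0.46) was among the lower ones. The sperm-type Gapdhs (2.23 and 1.42 TPM) and Hk3 (0.04 and 0.06 TPM) were called higher from controls listed at 0, at levels far below Gapdh and Hk1. Hkdc1, a hexokinase relative next to Hk1, had 7.77 and 6.80 RNA TPM at 2 h of KCl and 0.02 and 0.00 TPM in the control, but was listed at 0 in both footprint libraries of KCl 2 h.

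Of 10 genes for glucose and lactate transport and lactate dehydrogenase, 4 rose and 3 fell at 7 h of KCl, and 5 rose and 3 fell at 7 h of H2O2. Slc2a1, the main glucose carrier of fibroblasts, rose under both stresses: from 93.0 and 97.0 TPM to 235 and 254 TPM with KCl (log2 fold change 1.46) and to 177 and 194 TPM with H2O2 (1.04). Ldha, which turns pyruvate into lactate, rose by 0.53 under KCl and fell by 0.48 under H2O2. Slc16a3, a lactate exporter, behaved likewise, at 1.19 and -1.73. Ldhb, the heart-type subunit, went from 3.9 and 3.34 TPM to 33.6 and 32.9 TPM at 7 h of H2O2 (3.27), and its footprints from 9.24 and 8.47 TPM to 122 and 87.8 TPM. Slc2a4, the insulin-regulated carrier, rose there by 3.87, though only to 4.71 and 4.84 TPM.

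Of 8 genes that set the flux through glycolysis, 4 rose and 2 fell at 7 h of KCl, and 3 rose and 3 fell at 7 h of H2O2. Bpgm, which diverts the substrate of Pgk1 to 2,3-bisphosphoglycerate, went from 56.9 and 52.7 TPM to 245 and 261 TPM with KCl (2.31) and to 18.4 and 15.9 TPM with H2O2 (-1.60). Bpgm footprints went from 15 and 21.8 TPM to 148 and 185 TPM with KCl. Pfkfb3, which makes the activator of phosphofructokinase, rose in both (2.05 and 1.36). Txnip, which restrains glucose uptake, fell by 1.44 under KCl and by 0.85 under H2O2. Among 13 genes for the entry of pyruvate into mitochondria, 2 rose and 6 fell with KCl, and 4 rose and 6 fell with H2O2, or 1 and 7 without H2O2 replicate 1. Pdk2, a kinase that inhibits pyruvate dehydrogenase, fell in both (-1.49 and -1.63). Pdp2, a phosphatase that reactivates it, rose with KCl (1.17) and fell with H2O2 (-0.95).

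Of 16 other HIF-1 target genes tested, 13 rose and 2 fell at 7 h of KCl (37.2% and 31.6% of all genes), with a median log2 fold change of 0.78. Adm, coding for the peptide adrenomedullin, rose by 2.98 and Ankrd37 by 2.60, while Egln1, an oxygen-sensing prolyl hydroxylase, and Ndrg1 fell by 0.30 each (both named after their values were seen). In footprints 8 of 14 tested targets rose (10.5% of all genes) and none fell. HIF-1 alpha RNA itself (Hif1a) went from 93.7 and 90.4 TPM to 298 and 327 TPM (1.85). It was among 6 of 8 tested regulators that rose, with Epas1 (0.78), Hif1an (0.67), Mlxip (0.60), Arnt (0.38) and Vhl (0.28), and none fell. Myc and Mlx were the 2 regulators not called. At 7 h of H2O2, 8 targets rose and 5 fell, with Vegfa, the vascular growth factor, at 2.67 and Egln3 at 2.56. Among the regulators Myc (2.04) and Epas1 (0.49) rose and Arnt (-0.62) fell, while Hif1a was not called. At 2 h of H2O2 10 targets rose and 2 fell (27.3% and 26.5% of all genes), where 1 glycolytic enzyme rose and 4 fell. With KCl for 2 h, 10 targets rose and none fell (27.2% and 27% of all genes), where 3 enzymes rose and 2 fell. Of the 8 regulators 3 rose and 5 fell there. At 44 °C 10 targets rose and 2 fell (35.4% and 35.7% of all genes), where 7 of the 10 glycolytic enzymes fell. At 42 °C 1 target rose and 13 fell (31.7% and 31.9%).

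**Figure D5:**
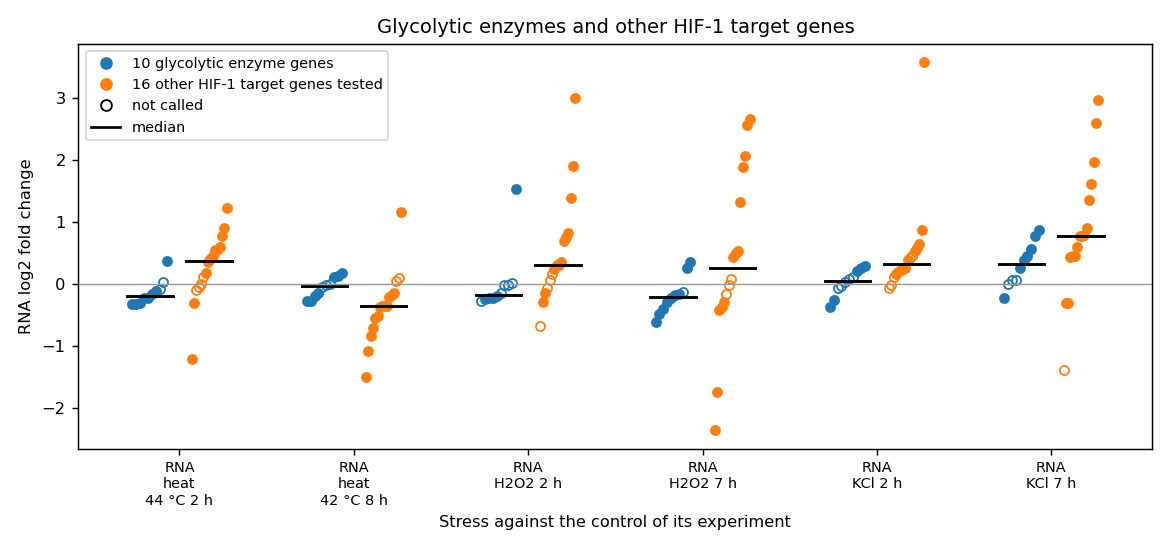
RNA log2 fold change of the 10 glycolytic enzyme genes (blue) and of 16 other HIF-1 target genes (orange) for each stress against its control; filled points are called at an adjusted p of at most 0.05, open points are not, and black lines are medians. At KCl 7 h the medians are 0.33 and 0.78, both above 0, whereas at 44 °C they are -0.18 and 0.38.

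The pentose phosphate pathway branches off before Pfkl. At 7 h of H2O2, 6 of its 7 enzymes rose and none fell, beside 39.4% and 31.1% of all genes. Their median log2 fold change was 0.46, beside -0.20 for the glycolytic enzymes. Rpe, the ribulose phosphate epimerase, rose by 1.41, and Pgd and Pgls, of the NADPH-making branch, by 0.62 and 0.52. Footprints of 1 of the 7 enzymes rose at 7 h of H2O2 and none fell. Of all genes 27.7% were called in either direction, and 10.6% were called lower. At 2 h of H2O2 the RNA of 1 enzyme rose and of 5 fell (27.3% and 26.5% of all genes), with a median of -0.19. At 7 h of KCl, 3 rose and 2 fell, or 1 and 2 on the TPM scale. Of 15 tested genes for serine synthesis and other branches, 5 rose and 8 fell at 7 h of H2O2, where Psph, the last step of serine synthesis, rose by 2.08, and Pck2, which makes phosphoenolpyruvate in mitochondria, by 1.58. At 7 h of KCl, 2 rose and 8 fell, with G6pc3, a glucose 6-phosphatase, at -1.19 and Pck2 at -1.14. The glycolytic enzymes and these branches were not tested against each other.

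The study's own readout, transcription past gene ends, was also deposited for these loci. Calls by the authors of a transcript running downstream of a gene covered 7 members as the upstream gene of a pair of neighbours: Pfkl, Gpi1, Aldoa, Tpi1, Pgam1, Eno1 and Gapdh. In the 2 controls of the H2O2 and KCl experiment none of the 7 was called, while 24.2% and 25.2% of 6399 pairs were. At 2 h of KCl 6 and 6 were called (31.9% and 34.7% of pairs): Pfkl, Gpi1, Aldoa, Pgam1 and Eno1 in both libraries. At 2 h of H2O2 5 and 4 were called (34.4% and 35.7%), with Pfkl, Aldoa and Tpi1 in both. By 7 h the numbers were 3 and 2 with H2O2 (19.4% and 21.2%) and 1 and 2 with KCl (23.8% and 23.4%). In heat they were 3 and 4 at 44 °C (32.7% in each), 2 and 2 at 42 °C (32.0% and 30.5%) and 2 and 0 in the control (27.9% and 26.5%).

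Pfkl, upstream of Trpm2, had the most such calls, in 9 of 16 libraries, and Gapdh, upstream of Cops7a, the fewest, in 1. No read-in, the call that upstream transcription enters the neighbouring gene, was made for a pair with a member in any library. That holds for the 4 members that are the downstream gene of a pair, Hk2, Tpi1, Pkm and Pgk1. The share of all pairs with a read-in call was not computed. Whether the absence of such calls is unusual for these loci is therefore not known. Hk2, whose RNA rose most, has Sema4f upstream. These counts are a description of the authors' calls and were given no test.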

How the data were processed

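PolyA RNA and ribosome footprints of NIH3T3 cells were read from deposited tables. Expected counts and TPM per gene were made by the authors before deposit; the submitters' processing notes name STAR, RSEM, Bowtie and mm10, with versions and roles not given in the sources used here. The authors also deposited, per gene pair, calls of downstream and read-in transcription and a read-in ratio of unstated formula. The calls are described and the ratio is not printed. No strand setting or alignment filter is stated, so overlapping neighbours and near-identical copies are uncertain. Of the tables' columns, 12 with per-sample values matched no sample here and were not used.

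Expected counts were rounded and fitted with edgeR 4.0.16 in R 4.3.3 (filterByExpr, TMM, quasi-likelihood F test, Benjamini-Hochberg adjustment over all genes, threshold 0.05), 1 fit for the 6 heat RNA libraries, 1 for the 10 other RNA libraries and 1 for the 10 footprint libraries. Translational efficiency was the interaction of library kind and stress over 20 libraries. Standard errors are the log2 fold change divided by the square root of F. Intervals are the estimate plus or minus 1.96 standard errors, so 95% is nominal. With so few libraries they are narrower than the F test would give. Fits were tested on simulated data with 200 changed genes, for 1 comparison of each kind. Changes of 0.75 on the log2 scale were called for 90% (heat RNA), 82% (H2O2 RNA), 17% (footprints) and 14% (translational efficiency) of such genes. The false share of calls was 7.04%, 7.25%, 7.61% and 4.4%, in the same order. A missing call in footprints or translational efficiency therefore does not mean no change. Real calls in the comparisons simulated covered 71%, 53.9%, 1.91% and 11.4% of genes, in the same order. For RNA the simulation changed only 200 of 12609 (heat) and 200 of 12785 (H2O2) genes, so the RNA rates may not hold for the real fits. Alternatives were DESeq2 1.42.0, RLE size factors, no filter, limma 3.58.1 on log2(TPM + 1) and with voom weights, only the groups compared, a replicate block, copies summed (Eno1 with Eno1b, Aldoa with its processed copies) and each library left out. The number of libraries, 2 a group, and footprint depth limit the precision. Promoter sequences come from RefSeq (GRCm38.p6). The glycolytic genes and the other lists were chosen with earlier results of these data known. All 10 glycolytic genes are named. From each other list the 2 called genes with the largest change in a comparison are named, and any gene of a list of 10 or fewer. Genes most like the glycolytic mean were ranked by Pearson r over the 16 RNA libraries, and 1 of the top 5 is not reported here.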

Additional observations from a re-analysis of the deposited data

Results flagged for a closer look

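Effects of the same stress differed between 2 h and 7 h by a direct edgeR test for 18 results, which is what singled them out. No group was large enough for a search for outlying samples. In RNA under H2O2 the effect at 7 h minus that at 2 h was -1.18 for Hk2 (adjusted p = 7.02e-09) and 0.40 for Gpi1 (adjusted p = 1.87e-04). For the later enzymes it was -0.39 for Tpi1, -0.27 for Pkm, -0.22 for Pfkl, -0.21 for Eno1, -0.18 for Pgam1 and -0.17 for Pgk1. Pgam1 was not called without H2O2 2 h replicate 2 or H2O2 7 h replicate 2, nor Pfkl without H2O2 7 h replicate 1.

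In RNA under KCl the difference was above 0 for each gene called: 0.70 for Pfkl (adjusted p = 4.38e-07), 0.58 for Pgam1 (adjusted p = 3.09e-07), 0.52 for Aldoa, 0.43 for Gapdh, 0.36 for Pkm, 0.16 for Eno1 and 0.13 for Pgk1. Pgk1 was called in none of the 4 fits with a library left out and Eno1 was not called without KCl 7 h replicate 2. In footprints under H2O2 it was -0.79 for Gapdh (adjusted p = 0.0074), -0.61 for Tpi1 (adjusted p = 0.0425) and -0.57 for Pkm (adjusted p = 0.0306). Whether depth has a part in the footprint values was not tested; the 2 libraries of H2O2 2 h were the shallowest and the deepest, at 1460751 and 5168537 counts.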

How the results depend on the processing

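Of 89 calls on the 10 genes, 59 held with any 1 library of the groups left out, and no left-out library turned a direction. Under the other settings 595 of 621 values kept their call. Summed copies and the replicate block each kept 89 of 89, DESeq2, RLE size factors and no filter 88 of 89 each, and TPM 71 of 87. Summing altered the counts of few members, Eno1 and Aldoa among them, so most of the 89 calls were hardly open to change by it. Copies of Gapdh were not summed, so the effect of its processed copies on its calls was not tested. On the TPM scale heat values turned below 0: at 42 °C against control Eno1 (-0.054), Pgam1 (-0.012) and Pkm (-0.069), and at 42 °C against 44 °C Gpi1 (-0.075), Pgam1 (-0.12) and Aldoa (-0.18, adjusted p = 0.00182, 0.08 and not called in CPM). The median of all genes there was -0.163 and -0.203. Counts there were 0 higher and 7 lower, and 1 higher and 5 lower.

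With 1 library left out the number of genes called went from 5 to between 1 and 6 for RNA at H2O2 2 h, from 7 to between 4 and 7 at 42 °C, and from 5 to between 3 and 5 at KCl 2 h. In footprints it went from 3 to between 1 and 4 for H2O2 7 h against 2 h, from 1 to 0 for H2O2 7 h, and from 3 to 1 or 2 for KCl 7 h. For translational efficiency it went from 1 to between 1 and 3 at H2O2 2 h, from 0 to 0 or 1 at H2O2 7 h, and from 1 to 0 or 1 at KCl 2 h. Footprints gave 0 calls on the TPM scale for both H2O2 7 h comparisons, 1 in place of 3 for 7 h against 2 h when only those groups were fitted, and 1 in place of 0 with DESeq2 at KCl 2 h. For translational efficiency at H2O2 2 h, 1 call became 3 with DESeq2, voom or the replicate block, and 2 with RLE size factors or no filter. At KCl 2 h it became 2 with DESeq2 and 0 with voom, and at KCl 7 h 0 became 1 with DESeq2. The cause of these moves was not tested. The labels give no shared source for equal replicate numbers, so the numbers were not taken as pairing in the main fits. Deviations of same-numbered libraries correlated over 0.1 in 1 of 3 pairs of heat RNA groups and 1 of 10 of the other RNA groups. In footprints this was 6 of 10 pairs of groups (-0.376 to 0.411, median 0.197), so pairing by number was not excluded there. The replicate block also moved footprint calls at KCl 7 h from 3 to 4 and RNA calls for H2O2 against KCl at 2 h from 6 to 8.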
